A study of Homo sapiens with 4 samples.

Results

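GDF15, FGF21, STC2, VEGFA and ADM2 encode secreted proteins that stressed cells release, and NUPR1 encodes a small nuclear protein that stressed cells make. These 6 genes were picked by symbol from a table of 16057 genes, and 5 of them have a row in it. VEGFA has no row under its symbol, and none of the 20 mRNA accessions that RefSeq lists for it occurs in the table, so its transcript level was not analysed here.

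The data are 4 RNA sequencing libraries of the human multiple myeloma cell line MM.1S. In 2 libraries the cells had received JG342 at 350 nM, and in the other 2 the solvent DMSO, both for 26 h. JG342 is an allosteric inhibitor of HSP70, a family of chaperones that help other proteins fold. The 2 libraries of a treatment are stated to be biological duplicates of this 1 cell line, and what separates the duplicates is not given in the sources used here. Levels are in TPM, a unit of relative transcript abundance that is corrected for transcript length and can therefore be compared between genes.

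As background, cells that lack amino acids, carry unfolded protein in the endoplasmic reticulum or have impaired mitochondria activate kinases that phosphorylate the translation factor eIF2. Bulk translation then falls while that of the transcription factor ATF4 rises, a programme called the integrated stress response. The genes described here are known from other systems as targets of this programme or of the factors that ATF4 induces. GDF15, a distant member of the TGF-beta family, acts on the brain receptor GFRAL with its partner RET and lowers appetite. FGF21 is a metabolic hormone that needs the co-receptor KLB beside an FGF receptor. ADM2, a peptide of the calcitonin family, acts through CALCRL paired with a RAMP protein. VEGFA is the main signal for new blood vessels and is studied in the bone marrow of myeloma. STC2 is a glycoprotein that inhibits pappalysins, the proteases that free insulin-like growth factors. NUPR1 works inside the nucleus as a cofactor of transcription.

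The sequences just upstream of the gene starts are shown because they differ in one element that belongs to this programme. RefSeq promoter sequences (GRCh38.p14) were at hand for 4 of the 6 genes, GDF15, FGF21, STC2 and ADM2, and not for VEGFA and NUPR1. The 120 bases before each start are printed 5′ to 3′ on the strand of the gene, with capitals for matches, on either strand, to the motifs searched.
FGF21 (chr19:48755404-48755523, plus strand): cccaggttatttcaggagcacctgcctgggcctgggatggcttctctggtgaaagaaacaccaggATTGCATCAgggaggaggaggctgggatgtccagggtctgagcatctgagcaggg
GDF15 (chr19:18386038-18386157, plus strand): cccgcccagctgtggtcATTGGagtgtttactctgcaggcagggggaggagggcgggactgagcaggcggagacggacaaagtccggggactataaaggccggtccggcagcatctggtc
STC2 (chr5:173328415-173328534, minus strand): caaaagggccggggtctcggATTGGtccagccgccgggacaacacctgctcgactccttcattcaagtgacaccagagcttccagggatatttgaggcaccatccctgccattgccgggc
ADM2 (chr22:50481423-50481542, plus strand): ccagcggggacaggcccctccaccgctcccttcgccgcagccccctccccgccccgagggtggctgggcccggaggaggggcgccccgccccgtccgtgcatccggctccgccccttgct

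The capitals in FGF21 are the reverse complement of TGATGCAAT, a composite element for C/EBP and ATF proteins, at positions -55 to -47 from the start. Of 27305 promoter windows of 250 bases before the start, 0.245% held this form, and 3.17% held the looser TGATGNAAN, of which it is a special case. The windows of GDF15, STC2 and ADM2 held neither, nor the cAMP response element TGACGTCA, which 1.76% of windows held. GDF15 and STC2 each held a CCAAT box, read as ATTGG at -103 to -99 and at -100 to -96, a motif found in 33.0% of windows. STC2 and ADM2 each held CCACG, at -221 to -217 and at -224 to -220, outside the bases printed and present in 33.3% of windows. ACGTG, a form of the core of the hypoxia response element, was in 18.7% of windows and in none of these 4. Other forms of that core were not searched. A match is a description of letters in this window, and elements farther from the start were not searched.

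ADM2 and GDF15 rose strongly after JG342, FGF21 and STC2 were under 1 TPM in every library, and NUPR1 was listed above 0 in 1 library. ADM2 (NM_001253845) had the highest level of the 5 genes in every library. It stood at 3.76 and 7.37 TPM in DMSO replicates 1 and 2 and at 44.52 and 46.34 TPM in JG342 replicates 1 and 2. The treated libraries were close to each other and far above both controls, whose values differed more. The mean went from 5.56 ± 2.55 TPM (SD, n = 2) to 45.4 ± 1.29 TPM. The ratio of treated to control was 11.8 in the libraries numbered 1 and 6.29 in those numbered 2. On the log2(TPM + 1) scale the rise was 2.88 ± 0.23 (SE), with a limma adjusted p of 0.000171, and it ranked 17th of the 12042 fitted genes, those averaging 1 TPM or more. ADM2 exceeded 36.6% and 44.3% of all genes in the DMSO libraries, and 77.6% and 78.7% of them after JG342. In data from whole cultures, a change in the share of cells that make a transcript and a change in transcript per cell cannot be told apart.

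GDF15 (NM_004864) was near the limit of detection in the controls and clearly present after JG342. It was listed at 0.15 and 0.31 TPM with DMSO and at 9.14 and 13.48 TPM with JG342. The treatments did not overlap, and the treated libraries spread more widely than those of ADM2. The means were 0.23 ± 0.113 TPM (SD, n = 2) and 11.3 ± 3.07 TPM. The rise on the log2(TPM + 1) scale was 3.30 ± 0.22 (SE; limma adjusted p 5.92e-05), ranked 10th of the 12042 genes. GDF15 reached a mean of 1 TPM, and so entered the fit, only through its treated libraries, and with such a control level a difference follows from passing that filter. In the fit of all 16057 genes without a filter, its limma adjusted p was 0.0159. A ratio of TPM is not given, since the control values amount to about 0.8 and 1.7 reads, against 48.2 and 79.5 reads after JG342, by an approximate conversion from the steps between low values. MIR3189, a microRNA gene, lies within GDF15 on the same strand.

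FGF21 (NM_019113) was listed at 0 and 0.16 TPM in the DMSO libraries and at 0.70 and 0.93 TPM in the JG342 libraries. Both treated values were above both controls, yet the approximate conversion puts them at 4.0 and 6.0 reads, against 0 and 1.0. With a mean under 1 TPM the gene was not in the main fit. In the fit without a filter the difference was 0.75 ± 0.12 (SE) on the log2(TPM + 1) scale, with a limma adjusted p of 0.0470. This call did not hold with a pseudocount of 0.1 in place of 1 (adjusted p 0.0841). It did not hold either when any of the 4 libraries was left out, where the adjusted p in limma was 0.277 without DMSO replicate 1, 0.298 without DMSO replicate 2, 0.226 without JG342 replicate 1 and 0.239 without JG342 replicate 2, at differences of 0.64 to 0.86. In those fits no gene of the table passed. FGF21, which has the composite element printed above, was seen at very few reads, and the 2 highest genes had no such match in the window. Whether the element bears on these levels was not tested.

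STC2 (NM_003714), the inhibitor of pappalysins, stood at 0 and 0.12 TPM with DMSO and at 0.38 and 0.82 TPM with JG342. The treatments did not overlap, and the treated libraries differed from each other by more than the controls did. Its long transcript makes these values worth more reads than those of FGF21, about 0 and 3.0 against 8.9 and 21.6. The difference was 0.58 ± 0.16 (SE) on the log2(TPM + 1) scale and did not pass in the fit without a filter (limma adjusted p 0.109). The level was thus low in both treatments, and a change was not established at this depth.

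NUPR1 (NM_001042483), the nuclear cofactor, was listed at 0 in both DMSO libraries and in JG342 replicate 2. It was listed at 0.27 TPM in JG342 replicate 1, which amounts to about 0.7 reads. The treatments overlap, and the fit without a filter gave a difference of 0.17 ± 0.13 (SE; limma adjusted p 0.477). At this depth neither its presence nor a change could be shown.

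**Figure D1:**
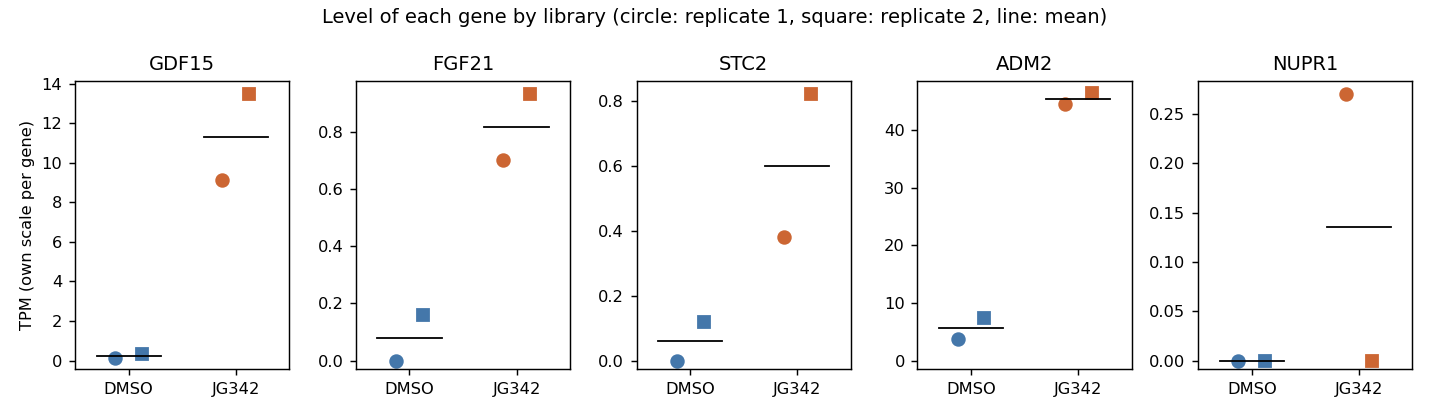
TPM of GDF15, FGF21, STC2, ADM2 and NUPR1 in each library, with circles for replicate 1, squares for replicate 2, lines for the mean of 2 libraries and a vertical scale of its own for each gene. With JG342, ADM2 lies near 45.4 TPM and GDF15 near 11.3 TPM, while FGF21 and STC2 stay under 1 TPM in every library.

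These genes have to be read against a wide response. Of the 12042 fitted genes, 18.4% passed a limma adjusted p under 0.05, 10.8% as higher and 7.62% as lower after JG342. The balance of these calls depends on scaling, with 1304 higher and 917 lower as deposited and 966 higher and 1200 lower after scaling to equal medians. In the fit of all 16057 genes without a filter, 5.16% passed, 3.32% as higher. In that fit GDF15, ADM2 and FGF21 passed as higher, 3 of the 5 genes with a row, and STC2 and NUPR1 did not. The TPM totals lay between 994463 and 994718, and between 1118 and 1418 genes were listed at 0 per library. All 10 plasma cell and myeloma markers checked, SDC1, TNFRSF17 and IRF4 among them, had a mean of at least 26.2 TPM. Their summed level was 14840 and 15120 TPM with DMSO and 10250 and 10940 TPM with JG342. Of the 10, 2 were higher after JG342, the transcription factors IRF4 (log2 fold change 0.77) and PRDM1 (0.36), 2 were lower, and 6 did not pass. The lower ones were JCHAIN, the immunoglobulin joining chain, which held most of the sum (-0.86), and TNFRSF17 (-0.44; limma adjusted p of the 4 from 0.000986 to 0.0472). PRDM1 lost its call without any 1 of the 4 libraries (limma adjusted p 0.0534 to 0.266), and TNFRSF17 without DMSO replicate 1 or JG342 replicate 2 (largest 0.288). Of 16 markers of other cell types, 15 had a row, and their summed level was 56.6 to 65.4 TPM with DMSO and 57.3 to 66.7 TPM with JG342. That sum was carried by LYZ (36.96 to 46.16 TPM), HBB (7.34 to 11.36 TPM), CD3E (3.21 to 7.70 TPM) and PECAM1 (2.84 to 4.38 TPM), of which none passed. The other 11 were each at 0.99 TPM or less in every library, and none was listed at 0 in all of them. The part of these differences in the results was not tested.

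**Figure D2:**
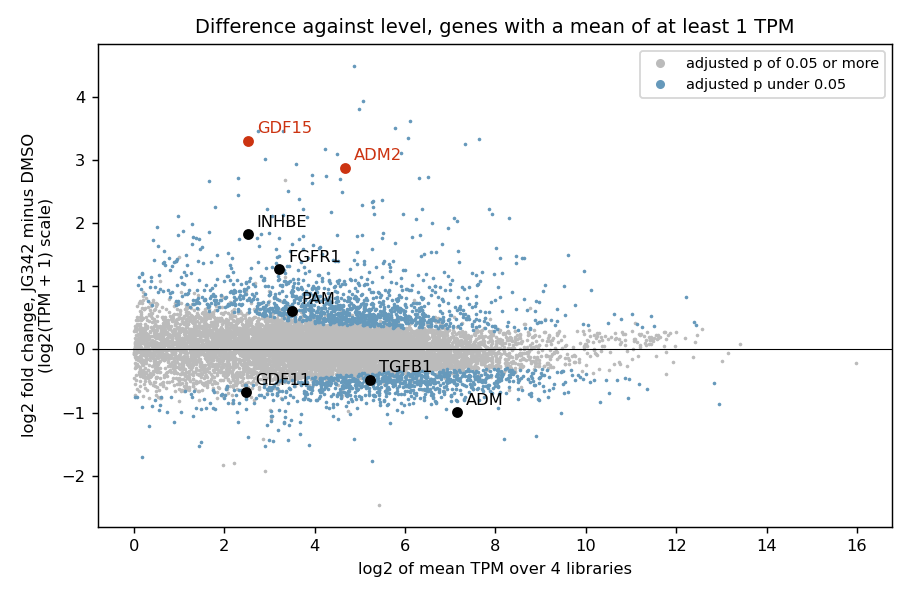
Log2 fold change on the log2(TPM + 1) scale against log2 of the mean TPM for the 12042 fitted genes, in blue where the limma adjusted p is under 0.05 and in grey otherwise. GDF15 at 3.30 and ADM2 at 2.88 lie near the upper edge, while ADM, the relative of ADM2, lies below 0 at -0.99.

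The order of levels was similar in both treatments but not resolved at its lower end. With JG342, ADM2 was above GDF15, which was above the other 3 genes, with no overlap of libraries at either step. FGF21 (0.70 and 0.93 TPM) and STC2 (0.38 and 0.82 TPM) overlapped. With DMSO, ADM2 again stood above the rest, whereas GDF15 (0.15 and 0.31 TPM) and FGF21 (0 and 0.16 TPM) overlapped, as did FGF21 and STC2 (0 and 0.12 TPM).

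The 2 libraries of a treatment also differed. The 4 genes seen with DMSO, GDF15, FGF21, STC2 and ADM2, all had their higher control value in DMSO replicate 2. So did 58.9% of the 12042 fitted genes, which do not include FGF21 and STC2. For all of the 4 but ADM2, the control values amount to about 3.0 reads or fewer. The step on the log2(TPM + 1) scale was 0.81 for ADM2 and between 0.16 and 0.21 for the other three. The same 4 genes were also higher in the second JG342 library than in the first, as were 43.3% of the fitted genes, by 0.51 for GDF15, 0.40 for STC2, 0.18 for FGF21 and 0.06 for ADM2. ADM2 therefore rose by 3.26 within the libraries numbered 1 and by 2.50 within those numbered 2. The rise of GDF15 was 3.14 and 3.47 in the same order. Genes of the stress response also differed between the controls. ATF4 stood at 420.29 and 787.89 TPM in DMSO replicates 1 and 2, and DDIT3 at 20.72 and 41.94 TPM. Of the stress response effectors described below, all but VLDLR and CTH were higher in DMSO replicate 2. What this has to do with the steps of ADM2 and GDF15 was not tested. With each library left out in turn, ADM2 ranged from 2.47 to 3.29 and GDF15 from 3.05 to 3.56, and both passed each time (largest limma adjusted p 0.000112 and 0.000373), which for GDF15 again rests on a filter passed through its treated libraries. Without the filter neither passed when a library was left out. There, the adjusted p in limma was 0.276 for both genes without DMSO replicate 1 and 0.298 without DMSO replicate 2. It was 0.210 for GDF15 and 0.229 for ADM2 without JG342 replicate 1, and 0.208 and 0.228 without JG342 replicate 2. In these 4 fits 0 of 16057 genes passed in limma, with 2535 to 3277 at an unadjusted p under 0.05.

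The genes whose profile over the 4 libraries was most like that of GDF15 or ADM2 were sought by Euclidean distance of centred log2(TPM + 1) values, among 9812 other genes that averaged 5 TPM or more. Nearest to GDF15 were RCAN2 at a distance of 0.16, ERICH2 at 0.30 and PCK2 at 0.32, against a median distance of 3.32 over all candidates. RCAN2, a regulator of the phosphatase calcineurin, was also close in level, at 0.19 and 0.32 TPM with DMSO and 10.38 and 15.78 TPM with JG342. PCK2, the mitochondrial form of phosphoenolpyruvate carboxykinase, went from 3.19 and 4.70 TPM to 36.73 and 44.98 TPM. Nearest to ADM2 were NDUFA4L2 at 0.17, CEBPB at 0.19 and SESN2 at 0.25, against a median of 2.92. CEBPB, a transcription factor of the C/EBP family, stood at 16.92 and 31.28 TPM with DMSO and at 147.07 and 169.69 TPM with JG342, and so shared with ADM2 the higher value in DMSO replicate 2. RCAN2, ERICH2, PCK2 and NDUFA4L2 were each under 5 TPM in both DMSO libraries. They became candidates only through their treated libraries, and a rise follows from that. The distances rest on 4 libraries that differ mainly by treatment, and they are a description.

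**Figure D3:**
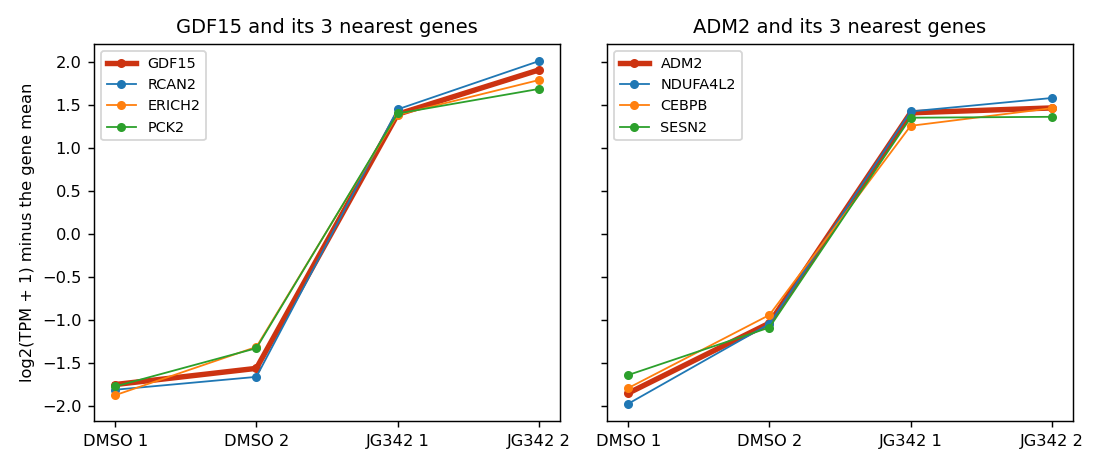
Centred log2(TPM + 1) of GDF15 with RCAN2, ERICH2 and PCK2 (left) and of ADM2 with NDUFA4L2, CEBPB and SESN2 (right) in the 4 libraries, with lines joining the values of a gene. The step between DMSO libraries is larger for ADM2 (0.81) than for GDF15 (0.19).

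Receptors for these secreted proteins were mostly low in MM.1S. Of 15 listed receptors and co-receptors, 14 had a row and 5 reached a mean of 1 TPM. FGFR1, an FGF receptor that FGF21 can use, was higher after JG342, at 4.48 and 5.53 TPM with DMSO and 11.88 and 15.07 TPM with JG342 (log2 fold change 1.27 ± 0.17 SE, limma adjusted p 0.00234), and was the 1 gene of the 5 that passed. KLB, the co-receptor that FGF21 needs, stood between 1.34 and 2.14 TPM over the 4 libraries with a difference of -0.20 ± 0.21. GFRAL, the receptor of GDF15, was listed between 1.65 and 2.55 TPM (-0.15 ± 0.21), while its partner RET was listed at 0 in both DMSO libraries and at 0.16 and 0.27 TPM after JG342. CALCRL, the receptor for ADM2, was listed at 0.17 and 0.11 TPM with DMSO and at 1.01 and 0.65 TPM with JG342, under the filter. Of its RAMP partners, RAMP2 and RAMP3 were each at 0.56 TPM or less, and RAMP1 has no row. The median log2 fold change of the 5 fitted receptors was 0.18, against 0.03 over all fitted genes. The 1 of 5 that passed stands beside 18.4% of all fitted genes.

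Enzymes that process these proteins, and the targets of STC2, mostly did not pass or were under the filter. Of 10 such genes 4 were fitted. PAM, which amidates peptides of the adrenomedullin type, was the 1 that passed, against 18.4% of all fitted genes. PAM went from 8.80 and 8.59 TPM to 15.32 and 12.47 TPM (0.61 ± 0.15 SE, limma adjusted p 0.0238). Its call was lost without DMSO replicate 1 (0.63, adjusted p 0.0945), DMSO replicate 2 (0.60, adjusted p 0.121) or JG342 replicate 1 (0.47, adjusted p 0.104 in limma). FURIN, a protease that cleaves TGF-beta family precursors, was at 23.09 and 25.20 TPM with DMSO and 26.95 and 23.13 TPM with JG342 (0.05 ± 0.13). The pappalysin genes PAPPA and PAPPA2 were listed at 0.19 TPM or less in every library, and FAP, which cleaves FGF21, at 0.15 TPM or less. The median of the 4 fitted genes was 0.19.

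Family relatives went in both directions, as did all fitted genes, of which 10.8% passed as higher and 7.62% as lower. Of 19 relatives 17 had a row and 9 were fitted, with 1 higher, 3 lower and 5 that did not pass, and a median of 0.10. ADM, which encodes adrenomedullin, a vasodilator peptide of the same family as ADM2, was lower after JG342. It went from 186.86 and 192.10 TPM to 96.05 and 93.87 TPM (-0.99 ± 0.09 SE, limma adjusted p 0.000329). In the same libraries ADM2 went the other way, from 5.56 to 45.4 TPM on average, and remained the lower of the pair. The call of ADM held in 15 alternatives. Like those of GDF15 and ADM2, it was lost where the filter was dropped and a library left out. INHBE, a TGF-beta family subunit of activin, was higher, at 2.01 and 1.84 TPM with DMSO and 11.25 and 7.82 TPM with JG342 (1.83 ± 0.20 SE, limma adjusted p 0.000799). GDF11 and TGFB1, ligands of the family to which GDF15 belongs, were lower by -0.68 ± 0.18 and -0.48 ± 0.12 (limma adjusted p 0.0307 and 0.0226). Both lost their call, in limma, without DMSO replicate 1 (adjusted p 0.191 and 0.141), DMSO replicate 2 (0.0692 and 0.0763) or JG342 replicate 2 (0.0894 and 0.0784). VEGFB, the relative of VEGFA with the highest level, was at 66.47 and 53.77 TPM with DMSO and at 76.03 and 60.15 TPM with JG342 (0.18 ± 0.14, not past the threshold). STC1, the relative of STC2, was listed at 0.06 TPM or less, and NUPR2, the relative of NUPR1, between 0.33 and 0.94 TPM in the 4 libraries.

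For comparison, 10.8% of all fitted genes passed as higher and 7.62% as lower. Among 20 transcription regulators known to act on these genes, all were fitted. Of them 7 were higher, 1 was lower and 12 did not pass, with a median of 0.26. The 4 with the smallest p were members of the C/EBP and ATF families, while ATF5 (-0.05 ± 0.13) and ATF6 (-0.02 ± 0.16) did not pass. ATF4 itself was higher by 1.25 ± 0.24 (limma adjusted p 0.00900). DDIT3, also called CHOP, went from 20.72 and 41.94 TPM to 283.12 and 295.28 TPM (3.25 ± 0.25 SE, limma adjusted p 0.000141). CEBPB rose by 2.72 ± 0.23, ATF3 by 2.22 ± 0.11 and CEBPG by 1.40 ± 0.11 (largest limma adjusted p 0.000223). Of 14 effectors of the integrated stress response that are not secreted, 12 were higher and 2, VLDLR and CTH, did not pass, with a median of 2.15, below the 3.30 and 2.88 of GDF15 and ADM2. TRIB3, SESN2 and PPP1R15A were among those with the smallest p, at 3.34, 2.72 and 2.04. ATF3, CEBPB and DDIT3 are in both lists. EGR1, an immediate early factor, was the 1 that passed as lower (-0.75 ± 0.22, limma adjusted p 0.0446), and without any 1 of the 4 libraries it no longer did. HIF1A, a factor through which low oxygen acts on VEGFA, was at 24.69 and 27.69 TPM with DMSO and 28.28 and 25.82 TPM with JG342 (0.05 ± 0.12). These are transcript levels, and its protein was not measured.

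Other known routes to GDF15 and VEGFA were followed through their target genes. Over all fitted genes 10.8% passed as higher and 7.62% as lower. Of 20 fitted p53 targets 9 were higher, none passed as lower and 11 did not pass, with a median of 0.47. The 4 with the smallest p were TNFRSF10B, a death receptor, at 1.77 ± 0.11, BBC3 at 1.44 ± 0.19, GADD45A at 1.01 ± 0.12 and CCNG1 at 0.84 ± 0.10 (largest limma adjusted p 0.00205). They do not stand for the 11 that did not pass, which ran from -0.26 for FAS to 0.50 for RRM2B, with MDM2 at 0.07. Which factor raised the 9 was not tested, nor was whether p53 acted on GDF15. Without DMSO replicate 1 or DMSO replicate 2, 5 of the 20 passed each time. Of 21 fitted hypoxia targets 6 were lower, none passed as higher and 15 did not pass, with a median of -0.18. ADM, which is also in this list, LDHA (-0.83 ± 0.09), ANKRD37 (-0.83 ± 0.14) and the glycolytic enzyme TPI1 (-0.51 ± 0.10) were the 4 with the smallest p (largest limma adjusted p 0.00982). Without DMSO replicate 2 the count was 3, and TPI1 no longer passed (-0.41, limma adjusted p 0.106).

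Other growth factors and cytokines mostly did not pass, as was true of all fitted genes, of which 18.4% passed. Of 40 listed, 36 had a row and 23 were fitted, with 1 higher, 2 lower and 20 that did not pass, and a median of 0.14. HDGF and MIF were lower by -0.76 ± 0.13 and -0.45 ± 0.09 (limma adjusted p 0.00579 and 0.00991). CCL3, a chemokine at 2718 TPM or more in all libraries, was higher by 0.82 ± 0.21 (limma adjusted p 0.0285). The call of CCL3 was lost without DMSO replicate 2 (0.51, limma adjusted p 0.211) or JG342 replicate 1 (0.57, adjusted p 0.0862) and also after median scaling or quantile normalization. That of MIF was lost without DMSO replicate 1 or 2 (limma adjusted p 0.0811 and 0.094). The count of higher genes was 2 without DMSO replicate 1, 4 without JG342 replicate 2 and 0 without either of the other two, and that of lower genes was 1 without DMSO replicate 2.

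**Figure D4:**
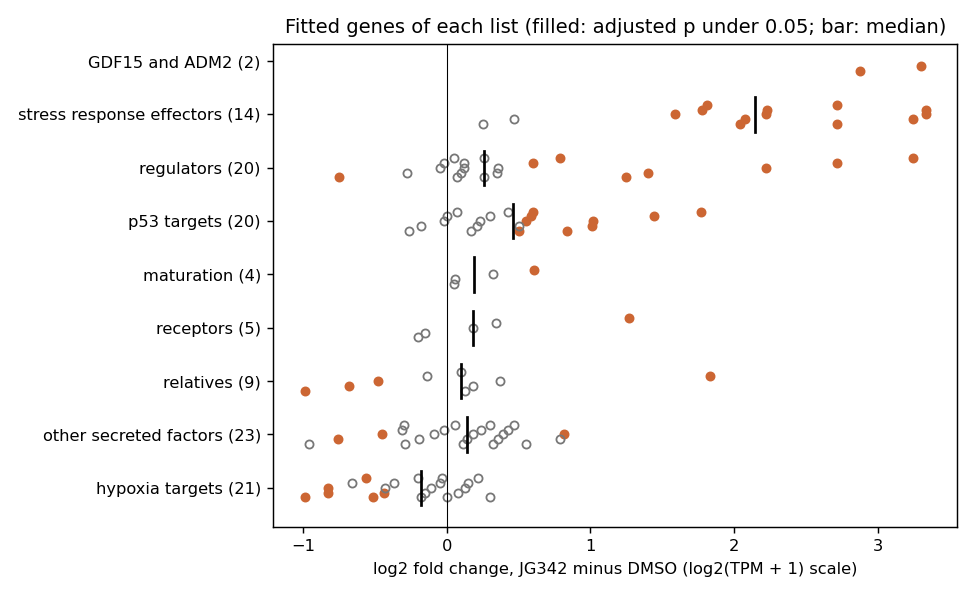
Log2 fold change on the log2(TPM + 1) scale of each fitted gene, by list with the number fitted in brackets, filled where the limma adjusted p is under 0.05, with a bar at the list median. At this pseudocount of 1, GDF15 and ADM2 lie among the highest stress response effectors, and GDF15 was fitted only through its treated libraries. The fitted relatives fall on both sides of 0, and the hypoxia targets that passed are all lower.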

How the data were processed

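RNA of 2 DMSO and 2 JG342 libraries was sequenced on a BGISEQ-500, per the labels. The deposited values are in TPM, inferred from the library totals and 2-decimal values. The submitters' processing notes name HISAT2 2.0.4, Bowtie2 2.2.5 and RSEM 1.2.12. Genome build, annotation, strand setting and filters are not given in the sources used here.

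Values were used as log2(TPM + 1), a scale that understates the change of low genes. The 12042 genes averaging 1 TPM or more were fitted across all genes with limma 3.58.1 in R 4.3.3 (eBayes with trend, treatment as the only term, two-sided, Benjamini-Hochberg, threshold 0.05), a procedure tested on simulated data. GDF15 and ADM2 passed the filter, and 3 genes with a row did not.

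The approximate worth of 1 read, 0.203 to 0.227 TPM in a transcript of 1000 nt, came from the most frequent low value times GENCODE 29 transcript length. It entered no test, and true depth is unknown.

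Named genes are the 6 chosen, the up to 4 genes of a list with the smallest p past the threshold (with none, the 2 highest) and the 3 nearest in profile. Receptors and relatives averaging 1 TPM or more could be named, and a part of them is. HIF1A, EGR1, VLDLR, CTH, FURIN, PAPPA, PAPPA2, FAP, RET, CALCRL, RAMP1, RAMP2, RAMP3, STC1, NUPR2, ATF4, ATF5, ATF6, FAS, RRM2B, MDM2, SDC1, CD3E and PECAM1 were added after their values were seen. Members and lists were chosen with earlier results of these data known.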

Additional observations from a re-analysis of the deposited data

How the results depend on the processing

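GDF15 and ADM2 kept their direction and their call in 15 alternatives, and lost the call where the filter was dropped and a library left out (chosen after seeing the data; limma adjusted p 0.208 to 0.298, with 0 genes passing in the whole table and 2535 to 3277 at an unadjusted p under 0.05). There the differences were 3.21, 3.40, 3.56 and 3.05 for GDF15 and 2.47, 3.29, 2.91 and 2.85 for ADM2, without DMSO replicate 1, DMSO replicate 2, JG342 replicate 1 and JG342 replicate 2 in turn. Over the 15 alternatives they were 1.63 to 5.13 and 2.28 to 3.29 on the log2 scale. The pseudocount set the size for low genes. With 0.1 in place of 1 the difference was 5.13 for GDF15, 2.49 for FGF21, 2.16 for STC2 and 0.94 for NUPR1, with or without the filter, and with 5 it was 1.63, 0.19, 0.15 and 0.04. Leaving out a library moved FGF21 between 0.64 and 0.86, STC2 between 0.38 and 0.78 and NUPR1 between 0 and 0.34, where a treatment left with 1 library was assumed to vary like the other. Genes passing over the whole table numbered 2221, against 828 without the filter, 572 without the filter and with a pseudocount of 0.1 (chosen after seeing the data), and 767 to 1825 with a library left out. A replicate block gave 4207 genes, and 3985 passed with the block and median scaling. The deviations of same-numbered libraries correlated at 0.27 over genes, in 2 pairs. In the labels, libraries with the same number carry a common prefix whose meaning is not stated, so the numbers were not taken as pairs. GDF15 and ADM2 passed with the block (limma adjusted p 1.28e-05 and 1.22e-05 with median scaling). Of 240 list counts compared, 195 stayed within 1.5 times. FGF21, STC2 and NUPR1, being under the filter, have no value in the block, quantile, variance and 5 TPM alternatives. FGF21 and NUPR1 are limited to a few reads or none, and each treatment has 2 libraries.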
